A study of Mus musculus with 12 samples.

Results

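The 10 genes described here are genes by which plasma cells, the antibody-secreting end stage of the B lineage, are recognised: Sdc1, Jchain, Xbp1, Mzb1, Prdm1, Derl3, Tnfrsf17, Tnfrsf13b, Fkbp11 and Irf4. They were taken as a list of known genes from the 21853 genes of the deposited table, by no rule on their values but with earlier results of these data known. All 10 passed the filter on low values that left 10994 genes for testing. Immunoglobulin genes were not analysed here. RNA of whole bone marrow from B6 mice was sequenced as 12 libraries, 3 for each of 4 groups. Expression is given as FPKM, a fragment count scaled for transcript length and library size, so levels can be compared between genes per length of transcript. DEIX stands for deinoxanthin, a carotenoid pigment named in the title of the series.

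The control group was not irradiated, and no gavage is stated for it. The TBI group received total body irradiation, 5 Gy of gamma rays at 0.66 Gy/min, and then 100 µL of olive oil by mouth as the vehicle. The TBI+DEIX group received the same irradiation and then 25 mg/kg of DEIX by mouth once per day for 14 days. The DEIX group received 25 mg/kg of DEIX for 14 days without irradiation. Marrow of the irradiated groups was taken 14 days after irradiation, a time that does not apply to control and DEIX. The labels give no genotype beyond B6, no age, and no statement that the 3 libraries of a group came from separate mice, so p-values measure the spread between these libraries, which may be partly technical. As labelled, TBI and control differ by olive oil as well as by irradiation, and the effects of these cannot be told apart. The DEIX effect is likewise taken against oil in irradiated mice and against no stated gavage in unirradiated mice. Libraries are named below by group and replicate number.

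When a B cell becomes a plasma cell, the transcription factors Irf4 and Blimp-1, the product of Prdm1, shut down B cell identity genes, and Xbp1 enlarges the endoplasmic reticulum and the machinery that folds and exports antibody. The J chain joins IgM and IgA into polymers for secretion. Bone marrow is the main home of long-lived plasma cells, where signals from the cytokines APRIL and BAFF through the receptor BCMA, encoded by Tnfrsf17, help to keep them alive. Because plasma cells are rare in marrow, a gene of theirs in a bulk sample reads the few plasma cells present together with any other cell that uses the gene. In bulk marrow, fewer cells of a type and less RNA per cell cannot be told apart.

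The promoter of Derl3 is shown because it was the only matched promoter among the 10 genes with a complete endoplasmic reticulum stress element, CCAAT and CCACG with 9 bases of any kind between, through which the Xbp1 and Atf6 factors act on secretory pathway genes. RefSeq promoters (GRCm38.p6) were matched for 9 of the 10 genes, with Mzb1 the unmatched one, and the 250 bases before each start were searched. The Derl3 window lies at chr10:75893148-75893397 on the plus strand, overlaps 0 exons of the GENCODE vM21 annotation, and holds the element in the opposite orientation. Capitals mark its 2 outer blocks, read here from the gene's strand.
Derl3: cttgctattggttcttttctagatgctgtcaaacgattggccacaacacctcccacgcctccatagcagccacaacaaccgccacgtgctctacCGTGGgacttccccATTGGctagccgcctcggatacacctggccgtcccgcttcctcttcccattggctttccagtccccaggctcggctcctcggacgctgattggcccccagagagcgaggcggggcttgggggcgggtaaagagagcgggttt

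Written in its own orientation, the Derl3 element at chr10:75893242-75893260 can be set beside the same element in genes of the secretory pathway list, with CCAAT and CCACG in capitals.
Derl3 element: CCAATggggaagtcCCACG
Hspa5 element: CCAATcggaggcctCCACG
Hsp90b1 element: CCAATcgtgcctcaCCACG
Creld2 element: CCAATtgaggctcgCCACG
The last 3 lie at chr2:34772025-34772043, chr10:86705533-86705551 and chr15:88819520-88819538, in the promoters of the chaperones BiP and GRP94 and of Creld2, a gene of the endoplasmic reticulum stress response. The Hsp90b1 promoter held 2 such elements, of which 1 is shown. Searched on both strands, the element was found in 35 of 27025 genes with a promoter entry, or 0.13%, in 7 of 25 secretory pathway genes, and in 0 of 13 matched genes of a second plasma cell list. Its shorter block CCACG was in 31.0% of all promoters and in those of 5 of the 9 genes, Derl3, Fkbp11, Irf4, Prdm1 and Sdc1. TGACGTGG, a motif bound by Xbp1 that holds CCACG on its other strand, was in 0.603% of promoters and in 0 of the 9. The composite motif of Irf4, GGAA and GAAA with 2 bases of any kind between, was in 2.68%, and the motif of Blimp-1, a pair of GAAA blocks around GT, was in 0.248%, each again in 0 of the 9. A match is a description of these letters and says nothing of binding.

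Per length, Jchain was by far the most abundant of the 10, with a mean of 438 FPKM over the 12 libraries, followed by Xbp1 with 116 FPKM, Mzb1 with 35.9 FPKM and Tnfrsf13b with 21.9 FPKM. Irf4 (8.94 FPKM), Derl3 (5.93 FPKM), Sdc1 (4.37 FPKM), Fkbp11 (3.83 FPKM) and Prdm1 (1.33 FPKM) were lower. Tnfrsf17, listed at 0 in 1 library, had a median of 1.27 FPKM, where the median of Prdm1 was 0.806 FPKM. For 9 of the 10 genes, all but Tnfrsf13b, the libraries of each group given DEIX varied more among themselves on the log2 scale than those of control or of TBI. Between groups, only 1 gene in 1 comparison passed the test: Irf4 was lower in TBI+DEIX than in control. In that comparison 13.1% of all genes tested were called lower and 30.0% were called in either direction. The call of Irf4 held in 8 of 21 alternative settings.

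**Figure D1:**
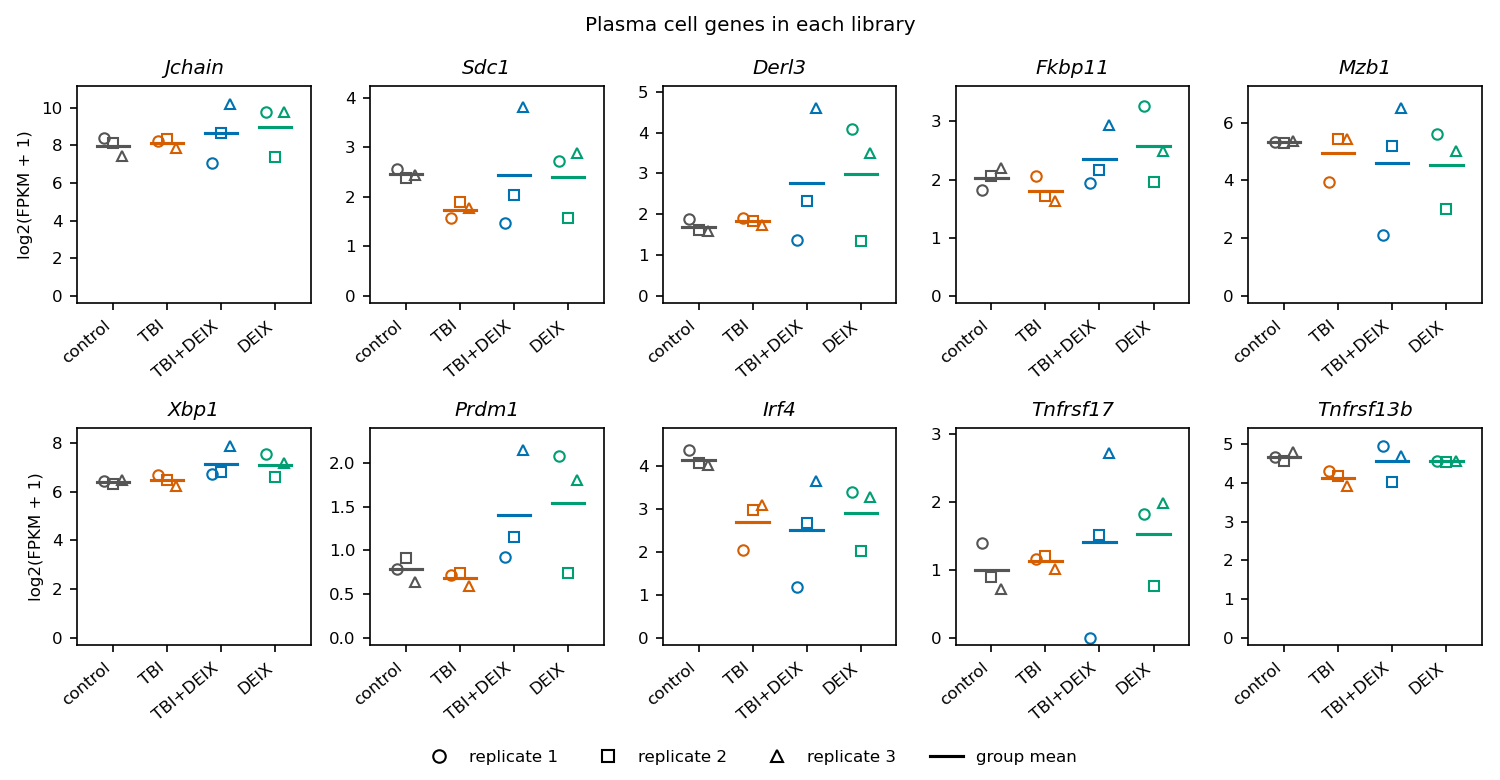
Expression of the 10 plasma cell genes as log2(FPKM + 1) on the vertical axis, for the 12 libraries by group. Symbols are libraries by replicate number and bars are group means. TBI+DEIX 3, DEIX 1 and DEIX 3 stand high and TBI+DEIX 1 and DEIX 2 low for most genes, while Irf4 is highest in the 3 control libraries.

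Jchain, the secreted joining chain, was at 332, 276 and 175 FPKM in control 1 to 3 and at 299, 328 and 230 FPKM in TBI 1 to 3. It was at 131, 411 and 1161 FPKM in TBI+DEIX 1 to 3 and at 876, 169 and 873 FPKM in DEIX 1 to 3. The control and TBI libraries lay within a narrow band, whereas both groups given DEIX held libraries above and below that band. By mean and SD (n = 3), the order was DEIX with 639 ± 408 FPKM, TBI+DEIX with 568 ± 533 FPKM, TBI with 286 ± 50.1 FPKM and control with 261 ± 79.2 FPKM, and no neighbours in that order differed beyond their spread. On the log2(FPKM + 1) scale of the test, which understates changes of low genes, DEIX minus control was 1.00 with a 95% interval from -0.65 to 2.65 (limma, adjusted p = 0.448), and it ran from 0.60 without DEIX 1 to 1.79 without DEIX 2, with 0.61 without DEIX 3. TBI minus control was 0.16 (interval -1.49 to 1.81, adjusted p = 0.937) and TBI+DEIX minus TBI was 0.49 (interval -1.16 to 2.14, adjusted p = 0.718). The small difference of the first turned to -0.10 without control 3 and that of the second to -0.28 without TBI+DEIX 3, so neither has a settled direction.

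Sdc1 encodes syndecan-1, or CD138, the surface proteoglycan by which plasma cells are sorted. It was at 4.92, 4.20 and 4.42 FPKM in control 1 to 3, at 1.95, 2.73 and 2.41 FPKM in TBI 1 to 3, at 1.78, 3.08 and 13.03 FPKM in TBI+DEIX 1 to 3, and at 5.62, 1.95 and 6.39 FPKM in DEIX 1 to 3. The 3 TBI libraries all lay below the 3 controls, and the other groups overlapped both. TBI minus control was -0.72 ± 0.50 (log2, SE; adjusted p = 0.491), and TBI+DEIX minus TBI was 0.69 ± 0.50 (adjusted p = 0.405). The second was 0.01 without TBI+DEIX 3 and 1.18 without TBI+DEIX 1. With only the control and TBI libraries in the fit, the first difference, again -0.72, had an adjusted p of 0.00608, in a setting that called 12.9% of all genes against 3.99% in the fit of all libraries.

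Derl3 encodes a derlin of the endoplasmic reticulum that helps misfolded proteins out for degradation. Its values were 2.71, 2.07 and 2.00 FPKM in control 1 to 3, 2.78, 2.56 and 2.32 FPKM in TBI 1 to 3, 1.59, 3.99 and 23.3 FPKM in TBI+DEIX 1 to 3, and 16.0, 1.56 and 10.3 FPKM in DEIX 1 to 3. The 6 libraries without DEIX lay close together, and the ratio of the highest to the lowest library was 14.6 in TBI+DEIX and 10.3 in DEIX. DEIX minus control was 1.28 ± 0.77 (log2, SE; interval -0.41 to 2.96, adjusted p = 0.332), and it was 0.73 without DEIX 1 and 2.09 without DEIX 2. TBI+DEIX minus TBI was 0.94 ± 0.77 (adjusted p = 0.468), and it was 0.02 without TBI+DEIX 3 and 1.63 without TBI+DEIX 1.

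Fkbp11, a prolyl isomerase of the endoplasmic reticulum, ran from 2.53 to 3.61 FPKM in control, from 2.10 to 3.19 FPKM in TBI, from 2.85 to 6.69 FPKM in TBI+DEIX and from 2.89 to 8.58 FPKM in DEIX. All groups overlapped, with TBI+DEIX 3 and DEIX 1 the highest of theirs. DEIX minus control was 0.54 ± 0.32 (log2, SE; adjusted p = 0.324), and TBI+DEIX minus TBI was also 0.54 ± 0.32 (adjusted p = 0.302). The first was 0.20 without DEIX 1 and 0.85 without DEIX 2, and the second was 0.25 without TBI+DEIX 3.

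Mzb1, a chaperone-like protein that assists antibody assembly in marginal zone B cells and plasma cells, was at 39.0, 38.4 and 40.3 FPKM in control 1 to 3 and at 14.3, 42.2 and 41.7 FPKM in TBI 1 to 3. It was at 3.25, 35.7 and 90.0 FPKM in TBI+DEIX 1 to 3 and at 47.6, 7.05 and 31.6 FPKM in DEIX 1 to 3. The controls differed by a ratio of 1.05, while the highest TBI+DEIX library held 27.7 times the lowest. No comparison of Mzb1 passed the test, and the within-group SD on the log2 scale was 2.27 in TBI+DEIX and 0.03 in control.

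Xbp1, the transcription factor of the secretory programme, was at 86.0, 78.9 and 86.8 FPKM in control 1 to 3, at 101, 89.0 and 74.5 FPKM in TBI 1 to 3, at 104, 112 and 236 FPKM in TBI+DEIX 1 to 3, and at 186, 96.1 and 143 FPKM in DEIX 1 to 3. All 6 libraries given DEIX lay above the 3 controls, and the 3 TBI+DEIX libraries lay above the 3 TBI libraries. The group means were 150 ± 74.2 FPKM in TBI+DEIX, 142 ± 44.8 FPKM in DEIX, 88.2 ± 13.4 FPKM in TBI and 83.9 ± 4.32 FPKM in control (SD, n = 3). DEIX minus control was 0.70 ± 0.30 (log2, SE; interval 0.04 to 1.36, adjusted p = 0.176), TBI+DEIX minus TBI was 0.67 ± 0.30 (interval 0.01 to 1.33, adjusted p = 0.179), and TBI+DEIX minus control was 0.73 ± 0.30 (interval 0.07 to 1.39, adjusted p = 0.0890). None passed the threshold over all genes, and without TBI+DEIX 3 the last 2 were 0.29 and 0.36. Xbp1 is also made in many other secretory cells, so its level does not read plasma cells alone.

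Prdm1, which encodes Blimp-1, was at 0.727, 0.885 and 0.560 FPKM in control 1 to 3 and at 0.644, 0.670 and 0.503 FPKM in TBI 1 to 3. It was at 0.892, 1.22 and 3.42 FPKM in TBI+DEIX 1 to 3 and at 3.22, 0.676 and 2.502 FPKM in DEIX 1 to 3. Each TBI+DEIX library exceeded every control and TBI library, the closest gap being that between 0.892 and 0.885 FPKM, whereas DEIX 2 lay among the controls. Prdm1 reached an FPKM of 1 only in TBI+DEIX 2, TBI+DEIX 3, DEIX 1 and DEIX 3. It thus passed the filter on low values only through groups where it was high, so its differences from control and TBI are description only. DEIX minus control was 0.76 ± 0.35 (log2, SE; adjusted p = 0.202), TBI+DEIX minus TBI was 0.72 ± 0.35 (adjusted p = 0.208), and TBI+DEIX minus control was 0.62 ± 0.35 (adjusted p = 0.197). Without DEIX 2, the difference of DEIX from control was 1.16 with an adjusted p of 0.0403, and without DEIX 1 it was 0.50. Without TBI+DEIX 3, the differences of TBI+DEIX from TBI and from control were 0.35 and 0.25.

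Irf4 is the transcription factor needed both for plasma cell formation and, at lower levels, in other B cell and dendritic cell stages. It was at 19.6, 15.7 and 15.1 FPKM in control 1 to 3, at 3.10, 6.82 and 7.47 FPKM in TBI 1 to 3, at 1.27, 5.40 and 11.6 FPKM in TBI+DEIX 1 to 3, and at 9.52, 3.07 and 8.65 FPKM in DEIX 1 to 3. All 9 libraries of the other groups lay below the 3 controls, and those 3 groups overlapped one another. The means were 16.8 ± 2.42 FPKM in control, 7.08 ± 3.50 FPKM in DEIX, 6.08 ± 5.17 FPKM in TBI+DEIX and 5.80 ± 2.36 FPKM in TBI (SD, n = 3).

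Irf4 fell by 1.64 ± 0.55 in TBI+DEIX against control (log2, SE; interval -2.85 to -0.43, adjusted p = 0.0433). The differences of TBI from control, -1.45 ± 0.55 (interval -2.66 to -0.24, adjusted p = 0.191), and of DEIX from control, -1.25 ± 0.55 (interval -2.46 to -0.04, adjusted p = 0.188), did not pass. These comparisons share the control libraries. The call in TBI+DEIX held in 8 of 21 alternative settings, with adjusted p from 0.00604 to 0.116, and without TBI+DEIX 1 the difference was -0.98 (adjusted p = 0.0985). Without DEIX 2 the difference of DEIX from control was -0.81. The direction was negative in all 21 settings for each of the 3 comparisons.

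The receptors for the survival cytokines did not follow one pattern. Tnfrsf17, or BCMA, was at 1.64, 0.858 and 0.636 FPKM in control 1 to 3, at 1.23, 1.30 and 1.02 FPKM in TBI 1 to 3, and at 2.55, 0.698 and 2.97 FPKM in DEIX 1 to 3. In TBI+DEIX it was listed at 0 in library 1 and was at 1.86 and 5.61 FPKM in libraries 2 and 3. The highest 3 libraries were thus the same as for Jchain, and the groups overlapped.

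Tnfrsf13b, or TACI, a receptor for both cytokines that B cells also carry, was at 24.3, 22.7 and 27.0 FPKM in control 1 to 3 and at 18.7, 17.3 and 14.1 FPKM in TBI 1 to 3. It was at 30.3, 15.4 and 24.7 FPKM in TBI+DEIX 1 to 3 and at 22.8, 22.1 and 22.9 FPKM in DEIX 1 to 3. The 3 TBI libraries lay below all controls and all DEIX libraries, and TBI+DEIX spanned both. TBI minus control was -0.54 ± 0.20 (log2, SE; interval -0.97 to -0.11, adjusted p = 0.167). This difference passed in 5 of the 21 settings, among them the fit of control and TBI alone (adjusted p = 0.0223) and those without TBI+DEIX 1 (adjusted p = 0.0427) or TBI+DEIX 2 (adjusted p = 0.0374). In that order, these settings called 12.9%, 12.2% and 3.75% of all genes, against 3.99% in the fit of all libraries. TBI+DEIX minus TBI was 0.43 ± 0.20 (adjusted p = 0.187), and it was 0.69 without TBI+DEIX 2 (adjusted p = 0.0215) and 0.23 without TBI+DEIX 1. The interaction, the DEIX effect in irradiated mice minus that in unirradiated mice, was 0.55 ± 0.28 (adjusted p = 0.745), and 0.34 without TBI+DEIX 1.

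**Figure D2:**
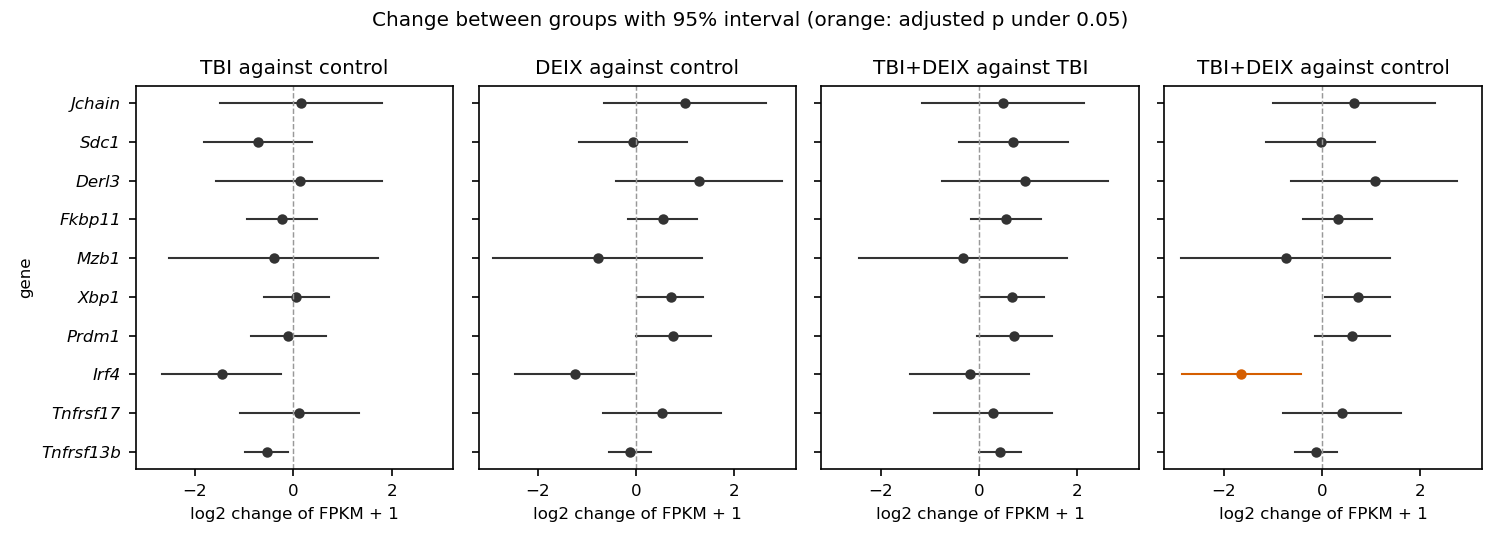
Differences between groups for the 10 plasma cell genes, as log2 change of FPKM + 1 on the horizontal axis with 95% intervals from the limma fit, in 4 comparisons. Only the interval of Irf4 in TBI+DEIX against control is in orange, the colour for an adjusted p under 0.05.

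Counted over the 10 genes, TBI against control called 0 (limma, adjusted p under 0.05), beside 3.99% of all genes tested. An unadjusted p under 0.05 was found for 2 of the 10, beside 18.1% of all genes. TBI+DEIX against TBI called 0 beside 8.10%, with 1 at an unadjusted p under 0.05 beside 27.2%. DEIX against control called 0 beside 7.24%, with 2 at an unadjusted p under 0.05 beside 24.7%. TBI+DEIX against control called 1, the lower Irf4, beside 30.0% of all genes in either direction and 13.1% called lower, with 2 at an unadjusted p under 0.05 beside 41.6%. TBI+DEIX against DEIX called 0 beside 2.57%, and the interaction called 0 beside 0.200%. Both had 0 at an unadjusted p under 0.05, beside 16.2% and 7.50%. With only 10 genes, these counts do not set the plasma cell genes apart from genes in general.

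The median log2 change of the 10 genes was -0.16 in TBI against control, where that of all genes was 0.05. It was 0.52 in TBI+DEIX against TBI and 0.53 in DEIX against control, where all genes had medians of 0.00 and 0.02. It was 0.37 in TBI+DEIX against control, where all genes had 0.02. These comparisons share libraries and are given side by side only. The libraries of the 2 groups did not overlap for 3 of the 10 genes in TBI against control, all lower (Sdc1, Tnfrsf13b and Irf4), beside 16.3% of all genes lower. They did not overlap for 2 genes in TBI+DEIX against TBI, both higher (Xbp1 and Prdm1), beside 14.5% of all genes higher. Prdm1 had passed the filter on low values only through libraries given DEIX. In DEIX against control Xbp1 was the 1 gene higher, beside 23.4%, and Irf4 the 1 lower, beside 17.2%. In TBI+DEIX against control Xbp1 and Prdm1 were the 2 genes higher, beside 23.9%, and Irf4 the 1 lower, beside 21.1%. In TBI+DEIX against DEIX all 10 genes overlapped, and 17.7% of all genes did not.

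The wide spread within the groups given DEIX was the most general property of these genes. The SD of log2(FPKM + 1) within groups, pooled over the 4 groups, exceeded the median of all genes, 0.19, for 10 of the 10, and for 9 it was among the top 10% of all genes. For Derl3 the SD was 0.17 in control and 0.09 in TBI against 1.66 in TBI+DEIX and 1.44 in DEIX. For Jchain it was 0.47 and 0.26 against 1.57 and 1.37. The median SD over all genes was 0.24 in TBI+DEIX, against 0.10 to 0.14 in the other 3 groups, so TBI+DEIX was the most variable group for genes in general as well. Tnfrsf13b was the exception, with an SD of 0.03 in DEIX.

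Within a group, the same library tended to be the high or the low one. DEIX 2 was the lowest of the DEIX libraries for 10 of the 10 genes, beside 36.7% of all genes tested, and for 9 of 10 beside 22.1% when each library was rescaled to a sum of 1000000 (TPM). TBI+DEIX 1 was the lowest of its group for 9 of 10 genes, beside 46% of all genes, and TBI+DEIX 3 was the highest for the same 9, beside 30.2%. On the TPM scale TBI+DEIX 3 was highest for those 9 genes and for 1.94% of all genes. Tnfrsf13b was the gene outside these 9. A group without DEIX also had a library that was low for most of the genes: TBI 3 was the lowest of its group for 7 of 10, beside 33.9% of all genes, and for 7 of 10 on the TPM scale. Among the control libraries none was highest or lowest for more than 5 of the 10, and control 2 was lowest for 6 of 10 on the TPM scale, beside 60.1% of all genes.

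Other cell types moved between these libraries too. The summed FPKM of 8 erythroid markers was 10230 in DEIX 2 against 1984 and 1695 in DEIX 1 and DEIX 3. In TBI+DEIX it was 177, 1903 and 490 in libraries 1 to 3, and in TBI it was 11029, 2132 and 4120. The total FPKM was 848843 in TBI+DEIX 3, the highest of the 12 libraries, 493683 in TBI+DEIX 1, the lowest, and 702948 in DEIX 1. Low values gave the worth of 1 read relative to control 1, where a higher value means a shallower library: it was 1.51 to 2.15 in TBI+DEIX and 0.892 to 1.68 in the other groups, with the highest, for TBI+DEIX 1, resting on few genes. The part of depth and of other cell types in the spread of the plasma cell genes was not tested.

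Jchain, Sdc1, Xbp1, Prdm1, Derl3, Tnfrsf17 and Fkbp11, 7 of the 10, had the same 3 highest libraries of the 12, TBI+DEIX 3, DEIX 1 and DEIX 3. That was so for 184 of 10994 genes, or 1.67%. Jchain is among the 7 because the trio is defined by its own 3 highest libraries. Prdm1 passed the filter on low values only through libraries given DEIX, so its place among the 7 lends no support. The trio was noticed in the values and is given as a description with no test. In a second list of 14 plasma cell and late B lineage genes it held for 5: Bhlha15, a factor of secretory cells, Creb3l2, a factor of the secretory pathway, Txndc5, a disulfide isomerase, Eaf2, a transcription elongation cofactor, and Lax1, a membrane adaptor. It held for 15 of 34 genes of the secretory pathway and unfolded protein response, among them the chaperones Hspa5 and Hsp90b1, and for 0 of 13 B cell markers. After rescaling to TPM it held for 6 of the 10, without Sdc1, for the same 5 of 14, for 3 of 34 secretory pathway genes and for 0.246% of all genes. With S100a8, S100a9 and Ngp, abundant genes listed at 0 in some libraries, left out of the sum, it held for the same 6 of 10 and 5 of 14, for 9 of 34 secretory pathway genes and for 0.755% of all genes.

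**Figure D3:**
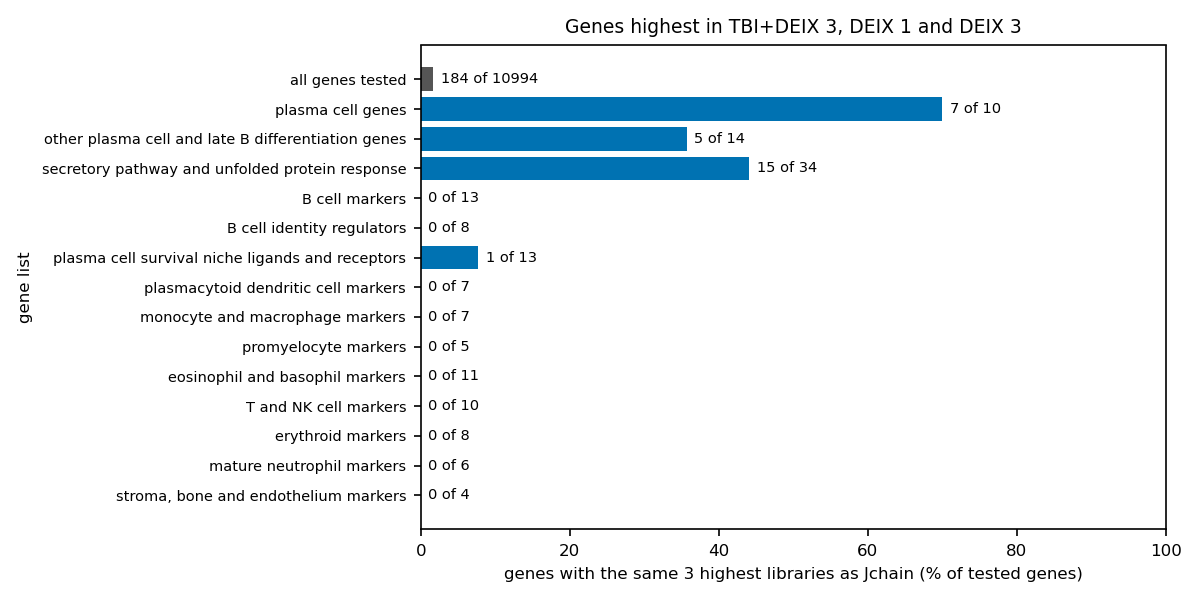
Percent of the tested genes of each list (horizontal axis) whose 3 highest libraries of the 12 were TBI+DEIX 3, DEIX 1 and DEIX 3, as for Jchain. Bars are lists, with counts beside them, and the plasma cell genes stand at 7 of 10 against 184 of all 10994 genes, with Jchain itself counted in both.

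Over the 12 libraries, the 5 genes with the highest Pearson r with Jchain on the log2 scale were Creb3l2 (0.98), Hsp90b1 (0.96), Tnfrsf17 (0.96), Derl3 (0.95) and Hspa13 (0.95). With the 2 libraries farthest from the median of Jchain left out, these r values were 0.96, 0.95, 0.95, 0.94 and 0.92. For Sdc1 the 5 were Ly6a (0.97), Bhlha15 (0.95), Eaf2 (0.95), Chrnb1 (0.93) and Fcgr1 (0.91), with 0.92, 0.90, 0.95, 0.83 and 0.88 when the 2 libraries farthest from the median of Sdc1 were left out. Within the 10 genes, Derl3 and Prdm1 had an r of 0.96 but a Spearman rho of 0.62, and Xbp1 and Prdm1 had 0.95 and 0.80, whereas by Pearson r Irf4 had 0.40 with Jchain and 0.04 with Xbp1, and Tnfrsf13b had -0.06 with Jchain. Irf4 was closest to Mzb1 by r (0.83, against 0.69 with Sdc1) and to Sdc1 by rho (0.76, against 0.59 with Mzb1). These are descriptions over n = 12 libraries that share groups, depth and normalisation.

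The other genes of the pathway were described from lists. In the second plasma cell list, TBI against control called 0 of 14 higher and 3 lower, beside 3.99% of all genes: Cd27, a TNF receptor of lymphocytes (-1.28 ± 0.14 log2, SE, adjusted p = 0.000803), Glcci1 (-1.18 ± 0.22, adjusted p = 0.0148) and the survival kinase Pim2 (-1.09 ± 0.13, adjusted p = 0.00143). The same 3 fell in TBI+DEIX against control, beside 30.0% of all genes called, and Glcci1 (-1.09) and Pim2 (-0.83) fell in DEIX against control, beside 7.24%. TBI+DEIX against TBI called 0 beside 8.10%, with 1 gene at an unadjusted p under 0.05 beside 27.2%. TBI+DEIX against DEIX called 1 lower, Cd27 (-0.94, adjusted p = 0.00879), beside 2.57% of all genes. The 3 most abundant genes of that list by mean FPKM were Trp53inp1, Txndc5 and Pou2af1. Pou2af1, the B cell coactivator OBF-1, was at 71.0 ± 8.11 FPKM in control against 28.7 ± 18.8 FPKM in TBI, 23.6 ± 18.1 FPKM in TBI+DEIX and 19.1 ± 6.22 FPKM in DEIX (SD, n = 3), without a call. Of 10 T and NK cell markers, 10 had a negative log2 change in TBI against control and 3 were called lower, beside 3.99% of all genes called. The part of T and NK cells in the level of Cd27 was not tested.

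Few genes of the secretory pathway and unfolded protein response passed the test. In the list of 34, TBI against control, TBI+DEIX against TBI and DEIX against control called 0, beside 3.99%, 8.10% and 7.24% of all genes, with 1, 1 and 10 genes at an unadjusted p under 0.05, or 2.94%, 2.94% and 29.4%, beside 18.1%, 27.2% and 24.7% of all genes. Across the alternative settings the calls ran from 0 to 5 in TBI against control and from 0 to 19 in DEIX against control, the highest with array weights, where 38.4% and 41.0% of all genes were called. TBI+DEIX against control called 2 of 34 beside 30.0% of all genes (1 to 13 across the alternative settings, the 13 with array weights beside 56.3%), with 17.6% of the list at an unadjusted p under 0.05 beside 41.6% of all genes. The 2 were higher, Edem1 (0.85 ± 0.22, adjusted p = 0.0139) and Sel1l (0.84 ± 0.19, adjusted p = 0.00802), both of the degradation route for misfolded proteins. The median log2 change was 0.28 in DEIX against control and 0.02 in TBI against control. Calr, Hsp90b1 and Hspa5 were the most abundant. Hspa5, the chaperone BiP, was at 159 ± 13.6 FPKM in control, 173 ± 19.8 FPKM in TBI, 205 ± 54.2 FPKM in TBI+DEIX and 218 ± 53.4 FPKM in DEIX.

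Among 13 ligands and receptors of the survival niche, TBI against control called 1 lower and TBI+DEIX against TBI called 0, beside 3.99% and 8.10% of all genes, the second with 4 at an unadjusted p under 0.05 beside 27.2%. DEIX and TBI+DEIX, each against control, called 1 higher and 2 lower, beside 7.24% and 30.0% of all genes. Tnfrsf13c, the BAFF receptor of mature B cells, was at 14.6 ± 2.16 FPKM in control against 2.08 ± 1.12 FPKM in TBI, 2.06 ± 1.54 FPKM in TBI+DEIX and 4.48 ± 0.796 FPKM in DEIX (SD, n = 3). It fell in TBI (-2.42 ± 0.37, adjusted p = 0.00479), in TBI+DEIX (-2.48 ± 0.37, adjusted p = 0.000917) and in DEIX (-1.51 ± 0.37, adjusted p = 0.0346), each against control. The ligand genes Tnfsf13, for APRIL, and Tnfsf13b, for BAFF, were not called in any of the 6 comparisons, with 11.01 ± 0.231 and 14.0 ± 0.676 FPKM in control. In DEIX against control, the chemokine Cxcl12, which holds plasma cells in marrow, fell (-1.51 ± 0.34, adjusted p = 0.0258) and the IL-6 receptor chain Il6ra rose (0.61 ± 0.13, adjusted p = 0.0228). Cxcl12 was at 11.8 ± 2.47 FPKM in control, 16.1 ± 7.53 FPKM in TBI, 12.8 ± 2.68 FPKM in TBI+DEIX and 3.59 ± 1.46 FPKM in DEIX (SD, n = 3). TBI+DEIX overlapped control and was higher than DEIX (1.62 ± 0.34, adjusted p = 0.0317), while the interaction of 1.30 ± 0.47 did not pass (adjusted p = 0.523). Of the 13 niche genes, TBI+DEIX against DEIX called 1 higher, Cxcl12, and 1 lower, Il6st (-1.29, adjusted p = 0.00666), beside 2.57% of all genes. Il6st was at 5.98 ± 0.877 FPKM in TBI+DEIX and 16.0 ± 0.950 FPKM in DEIX. Cxcl12 is made mainly by marrow stroma, and the summed FPKM of 7 stroma, bone and endothelium markers was 2.52 to 4.03 in DEIX and 2.96 to 5.10 in TBI+DEIX, both below the 5.18 to 6.25 in control, and 6.31 to 12.9 in TBI. Of the 4 of those markers that were tested, 0 were called in DEIX against control beside 7.24% of all genes, with 2 at an unadjusted p under 0.05 beside 24.7%. The part of stroma in the level of Cxcl12 was not tested.

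B cells, the precursors of plasma cells, can also express Irf4, Mzb1 and Tnfrsf13b, so their markers are given beside those genes. The summed FPKM of 13 B cell markers was 499 to 639 in control, 27.0 to 242 in TBI, 9.87 to 145 in TBI+DEIX and 85.7 to 126 in DEIX. Of those 13, 6 fell in TBI, 4 in DEIX and 12 in TBI+DEIX, each against control, beside 3.99%, 7.24% and 30.0% of all genes called, with median log2 changes of -2.24, -1.90 and -3.02. The count in DEIX ran from 1 to 11 across the alternative settings, the 11 in 4 settings that called 18.7% to 41.0% of all genes. Ms4a1, or CD20, fell by 3.92 and Fcmr, the IgM receptor, fell by 3.84 in TBI against control. Vpreb3, Cd79b and Cd79a were the most abundant of these markers. In the summed list, TBI 1 and TBI+DEIX 1 were the lowest libraries, and they were also the lowest of their groups for Irf4 and Mzb1 but the highest of their groups for Tnfrsf13b. DEIX 2, the lowest of its group for all 3 genes, was at 105 in that sum, between DEIX 1 and DEIX 3.

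Among the 8 regulators of B cell identity, which plasma cells normally switch off, Spib (-2.96 ± 0.56, adjusted p = 0.0151) and Bach2 (-2.27 ± 0.40, adjusted p = 0.0104) fell in TBI against control, beside 3.99% of all genes called. Both also fell in DEIX against control, by 2.57 and 2.30, beside 7.24%, and 5 of the 8 fell in TBI+DEIX against control, beside 13.1% of all genes called lower. Plasmacytoid dendritic cells can express Irf4 and secretory genes too. Their 7 markers summed to 90.2 to 95.2 FPKM in control, 38.6 to 48.1 in TBI, 17.01 to 34.04 in TBI+DEIX and 50.8 to 61.5 in DEIX, and 5 of 7 fell in TBI against control (beside 3.99% of all genes called; 2 to 7 across the alternative settings), among them Siglech (-1.48 ± 0.24, adjusted p = 0.00725). In DEIX against control 1 of 7 fell beside 7.24% of all genes called (0 to 6 across the settings, the 6 with array weights beside 41.0%). In TBI+DEIX against control 7 of 7 fell beside 30.0%, as in all 21 alternative settings. The part of B cells and of dendritic cells in the values of Irf4, Mzb1 and Tnfrsf13b was not tested.

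**Figure D4:**
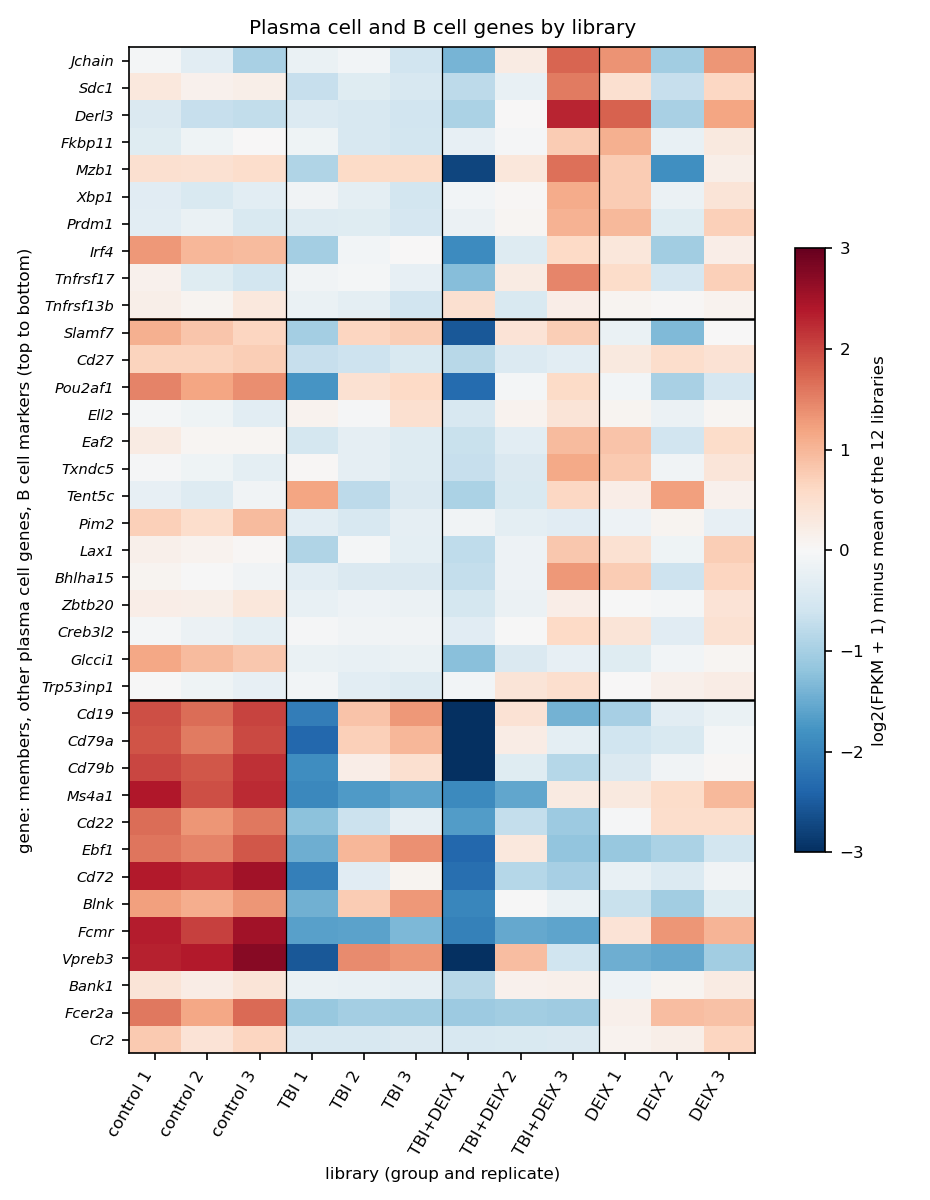
Plasma cell genes, the second plasma cell list and B cell markers (rows, top to bottom) in the 12 libraries (columns), coloured by log2(FPKM + 1) minus the mean of the gene over all libraries. B cell markers are high in the 3 control libraries, while Jchain, Derl3 and Bhlha15 are high in TBI+DEIX 3, DEIX 1 and DEIX 3.

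The summed FPKM of the 10 plasma cell genes, which is mostly Jchain, was 356 to 513 in control, 376 to 492 in TBI, 277 to 1576 in TBI+DEIX and 305 to 1178 in DEIX. Control and TBI overlapped in this sum while their B cell marker sums did not overlap. The sums of the second plasma cell list did not overlap either, with 243 to 277 FPKM in control and 182 to 188 FPKM in TBI. Of the 10 genes, Sdc1, Irf4 and Tnfrsf13b were each lower in every TBI library than in every control.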

How the data were processed

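The authors deposited 1 table of FPKM values for 12 libraries of whole mouse marrow, prepared with the MGIEasy directional RNA kit, per the labels' protocols. The submitters' processing notes name STAR 2.6, Cufflinks 2.2.1 and the build mm10. The annotation is not given in the sources used here; all 21853 identifiers matched GENCODE vM21, which gave symbols and coordinates. FPKM holds no counts, and total reads are unknown, so low genes, above all Prdm1 and Tnfrsf17, are the least precise. Between 10359 and 10832 genes per library reached an FPKM of 1.

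Values were tested as log2(FPKM + 1) for the 10994 genes that reached an FPKM of 1 in 3 or more libraries. One model of the 4 group means (limma 3.58.1 in R 4.3.3, lmFit and eBayes with a mean-variance trend) gave 6 comparisons, with Benjamini-Hochberg adjustment over all 10994 genes and a threshold of 0.05. The code was tested on simulated data. All 10 plasma cell genes are named; from each of 13 other lists (140 of 143 genes tested), up to 3 genes of highest mean FPKM and up to 4 called genes are named where that list is described, with a few added after their values were seen. Likeness took the 5 highest Pearson r. The genes and lists were chosen with earlier results of these data known. Alternatives covered the pseudocount, the filter, the libraries in the fit, 2 rescalings to TPM, the trend, array weights, a replicate block and each library left out. S100a8, S100a9 and Ngp, abundant neutrophil genes listed at 0 in some libraries, were left out of the sum in 1 rescaling. RefSeq promoters (GRCm38.p6) were searched with Python 3.11.15.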

Additional observations from a re-analysis of the deposited data

How the results depend on the processing

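Of the 6 comparisons, TBI+DEIX against DEIX and the interaction called 0 plasma cell genes in every setting run. Percentages are of all genes called in the same setting. TBI against control called 0 as reported (3.99%), but 3 with only the compared groups in the fit (Tnfrsf13b, Sdc1 and Irf4; 12.9%), 2 with array weights (38.4%), 1 without TBI 1 and TBI+DEIX 1 together (9.71%), and 0 to 2 when single libraries were left out (2 without TBI+DEIX 1, 12.2%; 1 without TBI+DEIX 2, 3.75%). TBI+DEIX against TBI called 0 (8.10%), but 3 with array weights (40.8%) and 0 to 1 with single libraries left out (1 without TBI+DEIX 2, 8.70%). DEIX against control called 0 (7.24%), but 1 (Irf4) with only the compared groups (18.7%), 6 with array weights (41.0%), 1 without TBI 1 and TBI+DEIX 1 together (24.6%), and 0 to 1 with single libraries left out (Irf4 without TBI+DEIX 1, 21.8%; Prdm1 without DEIX 2, 8.53%). TBI+DEIX against control called 1 (30.0%), but 0 with a pseudocount of 0.1 (29.8%), 0 without the filter (21.0%), 0 with only the compared groups (19.8%), 6 with array weights (56.3%), and 0 to 2 with single libraries left out (Xbp1 and Tnfrsf17 without TBI+DEIX 1, 38.5%; 0 without any 1 control, TBI 2, TBI 3, TBI+DEIX 2, DEIX 1 or DEIX 3). The causes were not tested; array weights give less weight to libraries that vary more. The omission of TBI 1 and TBI+DEIX 1 together was chosen after seeing the data. With single libraries left out, the log2 change of Jchain ran from -0.10 (without control 3) to 0.36 in TBI against control and from -0.28 (without TBI+DEIX 3) to 1.29 in TBI+DEIX against TBI.

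Replicate numbers did not pair the libraries: the correlation of deviations from group means for the same number ran from -0.447 to 0.242, over 0.1 in 3 of 18 pairs. With the replicate block, TBI+DEIX against control called 1 plasma cell gene, beside 27.3% of all genes. The other 5 comparisons called 0 with the block, beside 0.182% to 5.82% of all genes. Over all genes, calls ran from 153 to 4218 in TBI against control (439 as reported), 0 to 4488 in TBI+DEIX against TBI (891), 146 to 4508 in DEIX against control (796), 1785 to 6187 in TBI+DEIX against control (3299), 0 to 1145 in TBI+DEIX against DEIX (283) and 4 to 532 in the interaction (22). On the TPM scale the median of all genes moved to -0.12 in TBI+DEIX against TBI and in DEIX against control, and the share of calls that were higher moved from 57.9% to 34.4% and from 62.4% to 19.1%; it moved from 22.3% to 9.49% in TBI against control, from 56.2% to 30.6% in TBI+DEIX against control and from 95.5% to 82.1% in the interaction. With S100a8, S100a9 and Ngp out of the TPM sum, the medians in TBI+DEIX against TBI and in DEIX against control were -0.10 and -0.02, and the shares higher there were 29.5% and 48%. The share was 16.6% for TBI against control, 38.6% for the combination against control, 80.8% in the interaction and 16.6% for the combination against DEIX (31.4% as reported, 23.2% on the full TPM scale). B cell markers called ranged from 6 to 10 in TBI, 1 to 11 in DEIX and 7 to 13 in TBI+DEIX, each against control. The share of all genes called ranged from 1.39% to 38.4%, from 1.33% to 41.0% and from 16.2% to 56.3% in these comparisons.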

Other observations

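Among genes outside all lists whose 3 highest libraries were also TBI+DEIX 3, DEIX 1 and DEIX 3, Oosp1, Hid1, Epcam, Cacna1h and Tmem176a had the widest gap between those libraries and the rest. They were picked after their values were seen, and no test was made. Hid1, Epcam and Cacna1h reached an FPKM of 1 in those 3 libraries alone, so the filter on low values had fixed their 3 highest libraries in advance. Oosp1 was at 4.17, 0.899 and 4.15 FPKM in DEIX 1 to 3 and at 0.608, 1.26 and 14.0 FPKM in TBI+DEIX 1 to 3, with 1.04 to 2.04 FPKM in control. Epcam, an epithelial adhesion molecule, was at 2.45, 0.359 and 1.85 FPKM in DEIX 1 to 3 and at 0.337, 0.993 and 6.76 FPKM in TBI+DEIX 1 to 3. Tmem176a was at 30.0, 16.7 and 25.2 FPKM in DEIX 1 to 3 and at 8.65, 16.8 and 54.2 FPKM in TBI+DEIX 1 to 3, with 14.9 to 18.0 FPKM in control.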
